A study of Homo sapiens with 8 samples.

Results

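Ephrins and Eph receptors were examined in sorted cells of 4 lung cancer lines. The set was a list of 10 genes, 4 ephrin ligands (EFNA1, EFNA4, EFNA5 and EFNB2) and 6 Eph receptors (EPHA1, EPHA2, EPHA4, EPHB2, EPHB3 and EPHB4), and its values were taken from every probe set whose single gene symbol is one of these. The rule gave 21 probe sets for 9 of the 10 genes, among 54675 probe sets and 19775 named genes on the array. For EPHB2 it found none, so EPHB2 is not analysed here. EFNB2 was put on the list because its signal was higher in the side population of 3 lines. It was thus selected on these arrays, chosen by the same measured signals that a test would compare. The comparison of both populations is therefore given for EFNB2 as a description, with no test.

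A549, H460, H1650 and H1975 are established lung cancer lines, the first pair with mutated K-Ras and the second with mutated EGFR. Cells of each line were loaded with a Hoechst dye and sorted into the side population (SP), which pumps the dye out, and the main population (MP), which keeps it. Viable cells were taken by propidium iodide, the SP gate was set with fumitremorgin C, an inhibitor of the dye pump ABCG2, and the labels name no further agent for the sorted cells. Each population of each line was measured on 1 array, 8 arrays in all, so that the cell line is the replicate of the comparison of SP with MP. A cell line in culture holds no stroma or vessels, so neighbouring cell types that meet through these proteins in a tumour were not part of the samples.

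Ephrins are ligands that stay attached to the cell that makes them. A-type ephrins are held to the membrane by a lipid anchor, and B-type ephrins cross it with a short tail. They bind Eph receptors, a large family of receptor tyrosine kinases, on a touching cell. The receptor then signals into its own cell (forward signalling), and a B-type ephrin signals back into the cell that carries it (reverse signalling). A-type receptors mostly bind A-type ephrins and B-type receptors B-type ephrins, with EPHA4 able to bind both. The pathway is known for cell sorting and boundary formation, for growth of arteries (EFNB2) and veins (EPHB4), and in epithelial tumours for effects on adhesion and migration.

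The authors deposited log2 MAS5 signals, and all levels below are on that scale, where a difference of 1 is a 2-fold change. Where a gene had several probe sets, that with the highest mean signal stood for it. Tests ran on the 12300 genes with a mean log2 signal of at least 6.01, the median over all probe sets, and 8 of the 9 measured members passed this filter. EPHA1 did not, with a mean of 4.63. Levels of different genes were not set against each other, since probe sets differ in brightness.

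The labels were checked on other genes first. KRT8 and KRT18, keratins of simple epithelia, lay between 12.99 and 14.33 in each line (mean of SP and MP). CDH1 and EPCAM, epithelial adhesion genes, were at 1.12 and 5.61 in H460, and all 6 epithelial markers had means above the filter. Of 4 lung epithelial markers 3 passed it, the surfactant genes SFTPB and SFTPC at means of 7.64 and 7.66 and NAPSA at 6.19, while NKX2-1, a factor of lung epithelium, was at 3.83 to 5.38 in the 4 lines. None of these 3 was called between lines by limma. The filter is the median over all probe sets, and passing it does not by itself show that a gene is expressed. Of 6 fibroblast markers 5 passed, with the collagen gene COL1A1 at 12.97 in H1975 and 9.26 to 9.54 in the other lines. Of 5 endothelial markers 1 passed (PECAM1), and of 3 measured leukocyte markers 1 did, CD14 at 7.45 to 9.09, with CD3E and PTPRC below the filter. ABCG2, the dye pump, differed between SP and MP by 1.08, 0.36, 1.17 and -0.70 in A549, H460, H1975 and H1650. The array labelled SP in H1650 was thus the lower one. The labels were kept as deposited, every direction in H1650 rests on them, and results are also given without this line.

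The promoter sequences of 2 members are shown here, as EFNB2 differed most between SP and MP and EPHA4 differed most between lines. They are the 250 bases before the transcription start in RefSeq on GRCh38.p14, all on the minus strand and written 5′ to 3′. EFNB2 has 1 start in the table, at chr13:106535663-106535912, and EPHA4 has 2, the upstream at chr2:221574203-221574452 and the downstream at chr2:221572305-221572554. Capitals mark motifs searched on both strands. The GC box was spelled GGGCGG and the CCAAT box by the letters of its name. The TATA box was spelled TATAAA, and the AP-1 motif was spelled TGANTCA.
EFNB2: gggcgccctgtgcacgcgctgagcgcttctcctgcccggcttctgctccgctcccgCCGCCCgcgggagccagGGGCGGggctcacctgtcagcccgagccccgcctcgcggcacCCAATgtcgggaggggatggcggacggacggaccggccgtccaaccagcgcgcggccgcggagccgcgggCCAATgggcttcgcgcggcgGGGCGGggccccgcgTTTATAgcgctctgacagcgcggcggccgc
EPHA4 upstream: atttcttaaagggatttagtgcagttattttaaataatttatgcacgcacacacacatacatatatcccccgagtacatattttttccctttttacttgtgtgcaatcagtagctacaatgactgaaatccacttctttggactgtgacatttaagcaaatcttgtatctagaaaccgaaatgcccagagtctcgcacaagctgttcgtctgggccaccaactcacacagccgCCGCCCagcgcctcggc
EPHA4 downstream: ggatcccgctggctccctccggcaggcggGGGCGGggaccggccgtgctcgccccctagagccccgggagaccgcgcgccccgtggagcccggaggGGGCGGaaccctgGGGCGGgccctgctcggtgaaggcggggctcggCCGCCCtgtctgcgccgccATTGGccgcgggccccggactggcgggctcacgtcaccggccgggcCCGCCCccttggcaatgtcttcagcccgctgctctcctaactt
The EFNB2 window held 40 CG dinucleotides, against a median of 11 over 35116 promoter windows of the same length. It had 3 GC boxes, 2 CCAAT boxes and 1 TATA box. The upstream EPHA4 window held 9 CG dinucleotides and 1 GC box, and the downstream one held 30 with 5 GC boxes and 1 CCAAT box. A GC box was found in 42.6% of all windows, a CCAAT box in 32.01%, a TATA box in 10.7% and the AP-1 letters in 6.57%. No window shown held the AP-1 letters. These matches describe the sequence only.

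EFNB2, the transmembrane ligand ephrin-B2, had the largest ratios of SP over MP among the members in A549, H460 and H1650. Its signal was 9.20 in SP and 7.68 in MP of A549, 8.93 and 7.21 in H460, and 10.67 and 9.65 in H1975. In H1650 it was 7.48 in SP and 9.03 in MP. SP was the higher array in A549, H460 and H1975 and the lower one in H1650. As log2 ratios these differences were 1.52, 1.71, 1.02 and -1.55, or 2.88-fold, 3.28-fold, 2.03-fold and 2.92-fold on the linear scale. Over the 4 lines the mean log2 ratio was 0.68 ± 1.51 (SD, n = 4 lines), smaller than the spread between lines. Without H1650 it was 1.42 ± 0.36 (SD, n = 3 lines). Signals of the SP and MP arrays overlapped, from 7.48 to 10.67 in SP and from 7.21 to 9.65 in MP. In sorted bulk cells, fewer cells with the transcript and less of it per cell cannot be told apart.

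**Figure D1:**
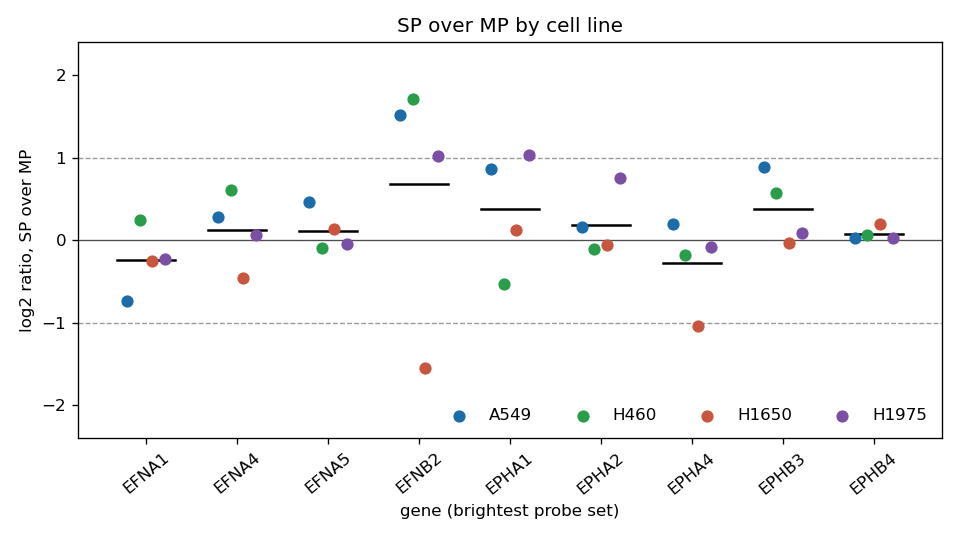
Log2 ratio of SP over MP (vertical axis) for the brightest probe set of each of the 9 measured members (horizontal axis). Each point is 1 line with 1 array per population, black bars are means over lines, and dashed lines mark 2-fold; EFNB2 lies beyond 2-fold in each line, upward in A549, H460 and H1975 and downward in H1650.

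The dimmer of both EFNB2 probe sets, with a mean of 6.29, gave the same direction in each line. Its signals in SP and MP were 7.13 and 5.63 in A549, 6.01 and 4.23 in H460, 5.80 and 6.54 in H1650, and 7.68 and 7.26 in H1975. The log2 ratios were 1.51, 1.78, -0.74 and 0.43, a mean of 0.74 ± 1.15 (SD, n = 4 lines). In A549 and H460 both probe sets thus gave nearly the same ratio, while in H1650 and H1975 the ratio of the dimmer one was under 2-fold. Both probe sets read the same arrays and are not replicates.

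A 2-fold or larger excess in SP of A549, H460 and H1975 together with a 2-fold or larger deficit in H1650 was rare on these arrays, at 0.0813% of genes above the filter (10 of 12300), which is given as background only because this pattern chose EFNB2. The direction alone, higher in the 3 lines and lower in H1650, was held by 13.5% of genes. Genes of mitosis moved the same way. A list of 10 mitosis genes held TOP2A, AURKB, CDK1, CCNB1, BUB1, TTK, KIF11, MKI67, PLK1 and NCAPG. All 10 were higher in SP in A549, H460 and H1975 and lower in H1650, with median log2 ratios of 0.70, 0.45, 0.92 and -0.92. The limma test of SP against MP called none of them. ABCG2 had the same signs. The 3′ minus 5′ difference of the ACTB control probe sets, a sign of RNA integrity, differed between SP and MP by -0.036, 0.066, -0.16 and -0.032 in A549, H460, H1975 and H1650. That of GAPDH differed by -0.022, -0.11, -0.076 and 0.024. The part of mitosis genes or of the label of H1650 in the EFNB2 ratios was not tested.

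**Figure D2:**
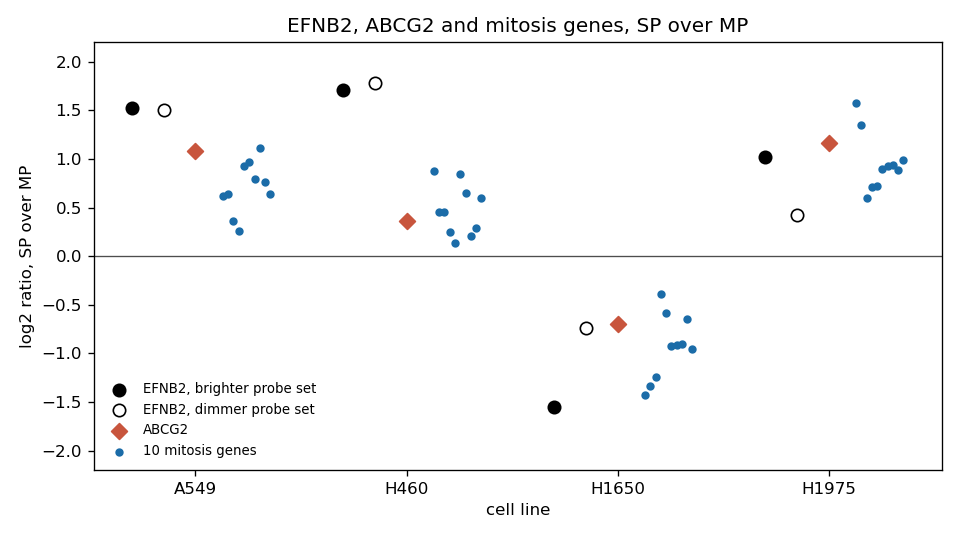
Log2 ratio of SP over MP (vertical axis) in each line (horizontal axis) for both EFNB2 probe sets, ABCG2 and the 10 mitosis genes, 1 pair of arrays per line. In H1650 all of these points lie below 0, and in the other lines all lie above it.

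The genes with the pattern most like that of EFNB2 were named by likeness alone. Over the 8 arrays the highest Pearson correlations with EFNB2 were those of SPC24 (r = 0.98), a kinetochore gene, ZSCAN25 (0.97), SPATA13 (0.97), FZR1 (0.97), an activator of the anaphase-promoting complex, and ZNF564 (0.96). The 8 arrays share 4 lines, so these are descriptions. By the 4 log2 ratios of SP over MP, the nearest genes were MED26, a Mediator subunit, at a root mean square difference of 0.17, MAP3K8, a kinase upstream of ERK, at 0.23, GATA6, a lung epithelial transcription factor, at 0.25, LURAP1L at 0.29 and SPSB1 at 0.34. The log2 ratios of MED26 were 1.45, 1.63, 0.98 and -1.23 in A549, H460, H1975 and H1650.

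The other ligands, all A-type, differed less between SP and MP. EFNA1, a ligand of EPHA2, had 11.03 in SP and 11.76 in MP of A549, 13.32 and 13.08 in H460, 11.51 and 11.76 in H1650, and 12.30 and 12.52 in H1975. It was lower in SP in 3 lines and higher in H460, and its ratios averaged -0.24 ± 0.40 (SD, n = 4 lines, limma adjusted p = 0.945). EFNA4 had 7.78 and 7.50 in A549, 8.60 and 7.99 in H460, 8.12 and 8.57 in H1650, and 8.33 and 8.26 in H1975, higher in SP in all lines but H1650. Its mean log2 ratio was 0.13 ± 0.45 (SD, n = 4 lines, limma adjusted p = 0.957), or 0.32 ± 0.27 without H1650. EFNA5, a ligand best known from axon guidance, had ratios from -0.088 in H460 to 0.47 in A549 and averaged 0.12 ± 0.25 (SD, n = 4 lines, limma adjusted p = 0.945). The next EFNA5 probe sets by signal had means of 0.056 ± 0.11 and -0.029 ± 0.045, and the dimmest, at a mean signal of 3.55, had -0.75 ± 1.61.

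Among the receptors, EPHA2, a receptor of EFNA1 that is often abundant in carcinoma, had 11.73 in SP and 11.57 in MP of A549, 9.77 and 9.88 in H460, 11.71 and 11.77 in H1650, and 10.82 and 10.06 in H1975. Both arrays were close in 3 lines, and SP was higher by 0.76 in H1975. Its mean log2 ratio was 0.19 ± 0.40 (SD, n = 4 lines, limma adjusted p = 0.945). EPHB3, a B-type receptor known from the sorting of intestinal epithelium, had 7.29 in SP and 6.39 in MP of A549, 4.88 and 4.31 in H460, 7.94 and 7.96 in H1650, and 6.69 and 6.60 in H1975. SP was higher by 0.89 and 0.57 in A549 and H460, and both arrays were within 0.085 in the others, which averaged to 0.38 ± 0.43 over the lines (limma adjusted p = 0.945). Both H460 signals were dim, and with linear signals floored at 32 the mean was 0.24. Without A549 it was 0.21. Its dimmer probe set, with a mean signal of 5.21, had -0.43 in A549 and a mean of -0.16 ± 0.20, so both probe sets disagreed in sign. EPHB4, the main receptor of EFNB2 on venous endothelium, had 9.93 and 9.91 in A549, 10.09 and 10.03 in H460, 10.52 and 10.33 in H1650, and 10.51 and 10.48 in H1975. SP was the higher array of EPHB4 in each line, by 0.024 to 0.20, with a mean of 0.080 ± 0.079 (limma adjusted p = 0.945), and 3.27% of genes were higher in SP in all 4 lines. Its second probe set had 2 lines higher and 2 lower, with a mean of 0.074 ± 0.45.

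EPHA4, the receptor that binds both ligand classes, had 7.43 in SP and 7.23 in MP of A549, 11.61 and 11.79 in H460, 5.34 and 6.37 in H1650, and 4.84 and 4.91 in H1975. The difference was 2.05-fold in H1650, where both arrays were near or below the filter, and at most 0.19 on the log2 scale in the other lines. The second EPHA4 probe set gave 0.013 in H1650. The mean log2 ratio was -0.27 ± 0.53 (limma adjusted p = 0.945), and -0.019 ± 0.19 without H1650. EPHA1 was dim in A549, H460 and H1975, and its ratios there, from -0.53 to 1.04, rest on signals between 2.64 and 4.68.

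Over all genes, 0% were called higher or lower in SP by limma at an adjusted p under 0.05, and none of the 7 tested members other than EFNB2 was called, with adjusted p from 0.945 to 0.957. None of the 7 had an unadjusted p under 0.05, which 3.02% of all genes had. Without H1650, 25 of the 12300 genes were called and again none of the 7 members. Their mean log2 ratios over 4 lines lay between -0.27 and 0.38. Missing the threshold does not show that the populations are alike in these genes, since the standard error of the mean ratio was 0.095 for EPHB4 and 0.25 for EPHB3. EFNB2 was the member past 2-fold upward, 1 of 8 each in A549, H460 and H1975 and 0 in H1650, where 2.87%, 1.98%, 1.78% and 1.02% of all genes were. Its rise in these lines chose EFNB2, so this count is no result about the members. Among the other 7 the highest log2 ratios were 0.89, 0.61, 0.76 and 0.20 in A549, H460, H1975 and H1650. In H1650, EFNB2 and EPHA4 were at least 2-fold lower in SP, against 2.02% of all genes, and no member was so in A549, H460 or H1975 (1.41%, 1.42% and 2.36% of all genes).

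By direction alone, SP was the higher array for 7 of the 8 members in A549 (50.5% of all genes), for 5 in H460 (45% of all genes), for 5 in H1975 (45.3%) and for 2 in H1650 (48.8%). In A549, H460 and H1975 together, 4 of the 8 (EFNA4, EFNB2, EPHB3 and EPHB4) were higher in SP, against 16.7% of all genes, and EFNB2 was chosen for this. The median ratio of the 8 members was 0.24, 0.15, 0.052 and -0.15 in A549, H460, H1975 and H1650, beside 0.00385, -0.0287, -0.0355 and -0.00715 over all genes. Both the counts for each line and these medians include EFNB2, which was chosen by its ratios. Without EFNB2 the ratios ran from -0.73 to 0.89 in A549 and from -0.17 to 0.61 in H460. They ran from -0.22 to 0.76 in H1975 and from -1.04 to 0.20 in H1650.

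Whether the effect in 1 line differed from that in the other 3 was tested as an interaction in limma for each line in turn. None of the 28 tests over the 7 members passed an adjusted p under 0.05 (lowest adjusted p = 0.396), where 0% of all genes passed for A549, 0% for H460, 0.333% for H1650 and 0.0407% for H1975. An unadjusted p under 0.05 was reached in 4 of the 28 tests, EFNA1 in A549 and in H460, EPHA4 in H1650 and EPHA2 in H1975, and by 4.55%, 2.17%, 12.1% and 4.54% of all genes for A549, H460, H1650 and H1975. The line set apart contributes a single SP and MP pair, so that its own spread is unknown.

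The cell line accounted for 91.95% to 98.96% of the sum of squares over the 8 arrays for EFNA1, EFNA5, EPHA2, EPHA4, EPHB3 and EPHB4, for 67.0% for EFNA4 and for 56.1% for EFNB2. The median over the 8 members was 94.9%, beside 92.2% over all genes. A limma F-test over the lines called 6 of the 8 members (75.0%) at an adjusted p under 0.05, and 76.3% of all genes, so the share of members is near the background. The median difference between the highest and the lowest line was 2.00 for the members and 1.13 for all genes. Of the 8 members, 6 (75.0%) spanned at least 2-fold, as did 56.9% of all genes. The members were chosen with earlier results of these data known. For the 5 ephrins and Eph receptors outside the list that passed the filter, the median difference was 0.86. By pairs of lines, limma called 5 of the 8 members between A549 and H460 (38.3% of all genes), 3 between A549 and H1650 (46.4%), 5 between A549 and H1975 (49.9%), 5 between H460 and H1650 (53.4%), 7 between H460 and H1975 (52.8%) and 5 between H1650 and H1975 (47.9%). Each line is represented by its SP and its MP array, and the p-values measure the spread of the SP to MP ratio, not that between cultures of a line.

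**Figure D3:**
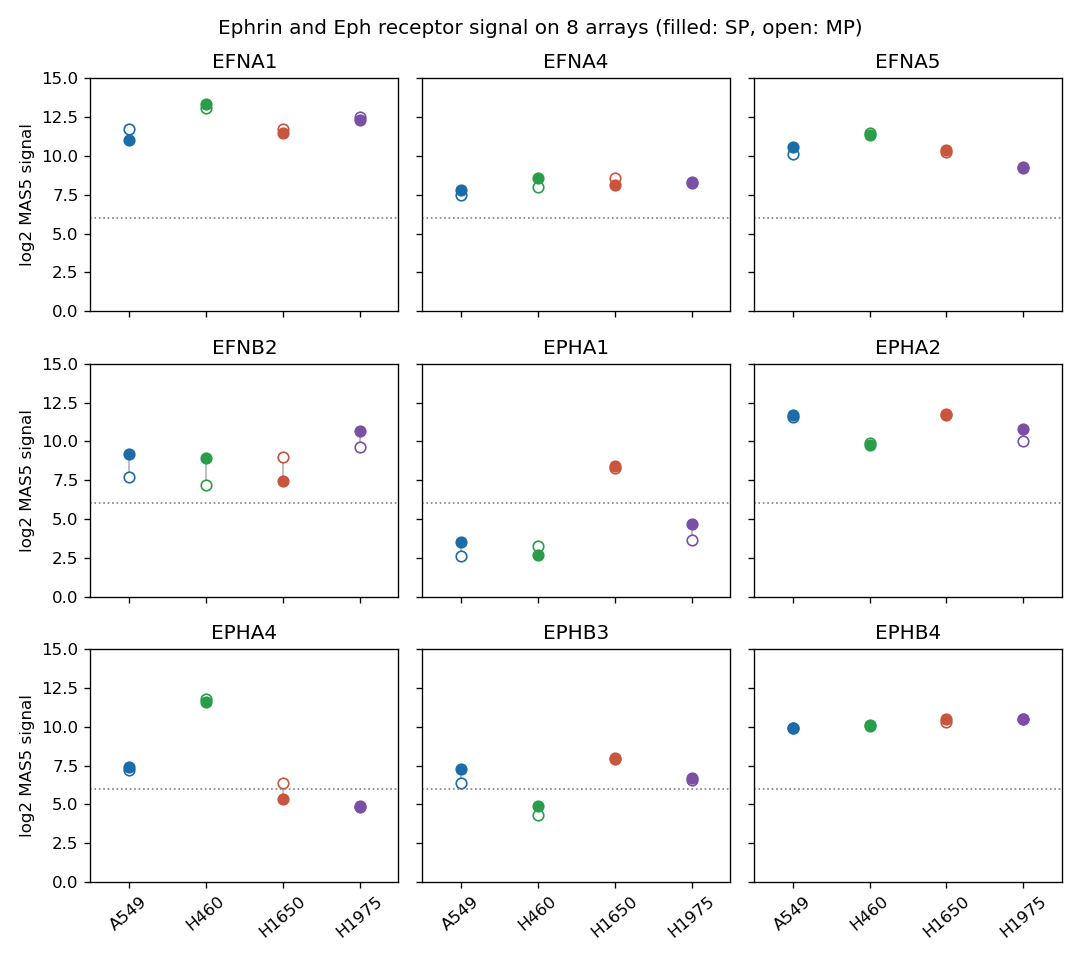
Log2 MAS5 signal (vertical axis) of the brightest probe set of each measured member on the SP (filled) and MP (open) array of each line (horizontal axis), with the filter of 6.01 dotted. EPHA4 stands highest in H460, EPHA1 is above the filter in H1650 only, and the SP and MP points of EFNB2 lie far apart in each line.

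EPHA4 had the widest range of the members above the filter. Its mean level was 11.70 in H460, 7.33 in A549, 5.86 in H1650 and 4.87 in H1975, and H460 differed from A549 and A549 from H1650 (limma adjusted p = 7.02e-05 and 0.00911). The step from H1650 to H1975 was 0.98 (limma adjusted p = 0.0441), between dim signals and no larger than the SP to MP difference of 1.04 in H1650. The second probe set had 5.81 in H1650 and 5.42 in H1975, and another had H1975 above H1650, at 2.00 against 1.68. Both H460 arrays lay above all 6 others, by 4.37 against the mean of A549. The other EPHA4 probe sets with signal also had H460 on top. H460 stood at 10.04, 10.00 and 9.46 on the next 3, and no other line exceeded 6.41 on them. The dimmest, with a mean of 1.76, was dim in all lines. From H460 to H1975 the difference was 6.83 (limma adjusted p = 1.16e-05 over the lines). H1975 was dim here, and when linear signals were floored at 32 the difference was 6.70.

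**Figure D4:**
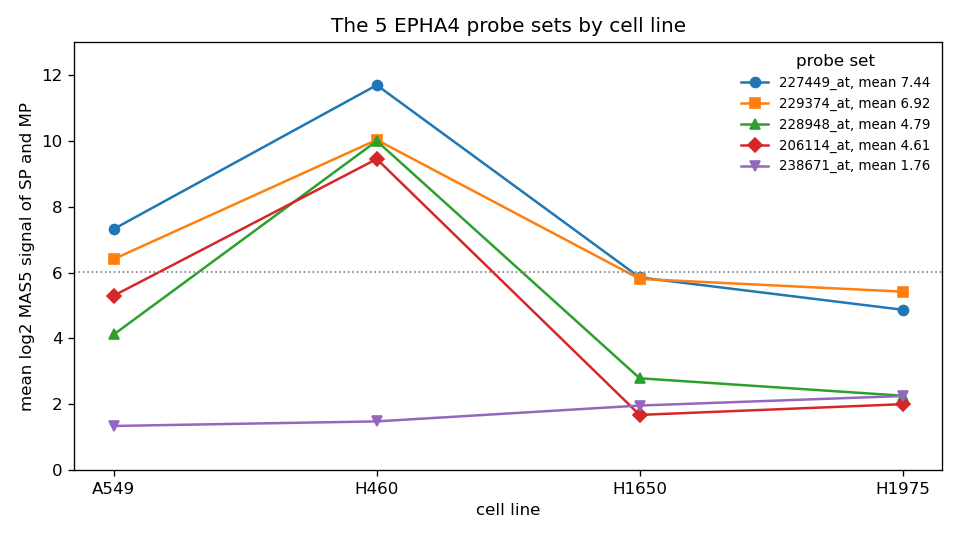
Mean log2 MAS5 signal of the SP and MP arrays (vertical axis) of each line (horizontal axis) for the 5 EPHA4 probe sets, with the filter of 6.01 dotted. The 4 brighter probe sets peak in H460 and the dimmest stays between 1.34 and 2.25.

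EPHA1 was measured well in 1 line. On its brightest probe set H1650 had 8.39 in SP and 8.26 in MP, and the arrays of the other lines lay between 2.64 and 4.68. The second probe set had 7.08 and 6.87 in H1650 and 1.09 to 4.63 elsewhere, and the third was at 5.24 or below on every array. All arrays of the other lines were under a linear signal of 32 on the brightest probe set, so that the size of the difference is not known. With signals floored at 32, H1650 was higher than each other line by 3.32, a value set by that floor and given without a test.

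H460 and H1650 were at opposite ends for EPHA2 and for the brighter EPHB3 probe set. EPHA2 was at 11.74 in H1650, 11.65 in A549, 10.44 in H1975 and 9.82 in H460, and the first 2 were not told apart (limma adjusted p = 0.766). The step from A549 to H1975 was 1.21 (limma adjusted p = 0.00254) and that from H1975 to H460 was 0.62 (limma adjusted p = 0.0416). EPHB3 was at 7.95 in H1650, 6.84 in A549, 6.64 in H1975 and 4.60 in H460, and A549 and H1975 were not told apart (limma adjusted p = 0.671). H460 was lower than H1975 by 2.05 (limma adjusted p = 0.00217), with both H460 arrays under a linear signal of 32, and by 1.64 with signals floored there. The dimmer EPHB3 probe set also had H1650 highest, at 6.96, but H1975 lowest, at 3.75, below H460 at 4.13. EPHB4 varied least, from 10.50 in H1975 to 9.92 in A549, and no pair of neighbours in its order passed (limma adjusted p = 0.693, 0.0518 and 0.441). The difference between its ends was 0.58 with the F-test passing (limma adjusted p = 0.0128). The second EPHB4 probe set, at 7.83 to 8.03, had no such range, and with the mean over both probe sets the test did not pass (limma adjusted p = 0.250).

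Among the ligands, EFNA1 was at 13.20 in H460, 12.41 in H1975, 11.63 in H1650 and 11.39 in A549, and only the last pair of neighbours did not differ (limma adjusted p = 0.0131, 0.0155 and 0.366). EFNA5 was at 11.42 in H460, 10.34 in H1650, 10.34 in A549 and 9.26 in H1975. H460 was higher than H1650 by 1.07 and A549 higher than H1975 by 1.07 (limma adjusted p = 0.00140 and 0.00159), while H1650 and A549 were not told apart. All 3 EFNA5 probe sets above the filter had H460 highest and H1975 lowest. EFNA4 ran from 8.34 in H1650 to 7.64 in A549, and the lines did not pass the F-test (limma adjusted p = 0.131). EFNB2 was at 10.16 in H1975, 8.44 in A549, 8.25 in H1650 and 8.07 in H460 and did not pass either (limma adjusted p = 0.0781). Leaving out an array of H1650 removes the ratio that went against those that chose EFNB2, so no test is given for EFNB2 without it. Both H1975 arrays of EFNB2 lay above all 6 others. H460 thus had the highest levels of EFNA1, EFNA5 and EPHA4 and the lowest of EPHA2, and for EFNB2 the levels of A549, H1650 and H460 were not told apart (limma adjusted p = 0.849 and 0.845).

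The rest of the family and its signalling partners were taken from gene lists, which were chosen with earlier results of these data known. Of 12 other ephrins and Eph receptors, 5 passed the filter (EFNA2, EFNA3, EFNB1, EFNB3 and EPHA8), none was called between SP and MP, and the median of their mean log2 ratios was -0.032. Between lines 1 of these 5 was called, EFNA3, at 8.93 in H460 and 6.71 in A549 (limma adjusted p = 0.000665). EPHA5 was below the filter with a mean of 5.32 but stood at 10.21 in H460.

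Of 30 genes of forward signalling, the exchange factors, GTPases and adaptors that act below the receptor, 26 passed the filter and 0 were called between SP and MP at an adjusted or unadjusted p under 0.05. Those with the smallest p were CRKL, an adaptor, with a mean log2 ratio of 0.18 ± 0.13, NGEF, the exchange factor ephexin, with -0.51 ± 0.74, and SIPA1L1 with -0.21 ± 0.12 (SD, n = 4 lines, limma adjusted p = 0.945 each). Between lines 20 of the 26 (76.9%) were called, beside 76.3% of all genes. TIAM1, a Rac exchange factor, had the widest range, from 11.08 in H1650 to 6.94 in A549, and VAV3, an exchange factor recruited by Eph receptors, ran from 10.77 in H1650 to 8.50 in H460.

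Of 16 genes of reverse signalling, partners of B-type ephrins, 15 passed the filter and none was called between SP and MP. CLDN4, a tight junction protein reported to bind ephrin-B, was the single one with an unadjusted p under 0.05, with ratios of 3.19, 1.93, 0.36 and -0.22 in A549, H460, H1975 and H1650 (limma adjusted p = 0.945). Its level was 4.11 and 3.83 in A549 and H460, so that its ratios in these lines rest on dim signal, beside 11.78 in H1650 and 8.86 in H1975. PICK1 had the next smallest unadjusted p, with ratios of 0.58, 0.010, 0.38 and 2.09 in A549, H460, H1975 and H1650 (limma adjusted p = 0.945). The MP signal of PICK1 in H1650 was dim, at 4.30. FYN and SRC, kinases that phosphorylate the ephrin-B tail, had mean log2 ratios of 0.091 ± 0.57 and 0.20 ± 0.29, and FYN was at 4.35 in H460 against 8.25 to 9.73 in the other lines. Between lines 13 of the 15 (86.7%) were called, beside 76.3% of all genes. Of 9 measured genes of ephrin and Eph shedding none was called between SP and MP and 8 (88.9%) were called between lines, beside the same 76.3% of all genes. ADAM10, the protease that cuts bound ephrins, was lower in SP in all 4 lines, as were 6.48% of all genes. Its mean log2 ratio was -0.19 ± 0.15 (SD, n = 4 lines, limma adjusted p = 0.945). It was the single one of the 9 with an unadjusted p under 0.05, which 3.02% of all genes had. RHBDL2, a protease that cuts B-type ephrins, ran from 9.41 in H1650 to 3.33 in H460, and MMP2 from 10.20 in H1650 to 5.44 in H460.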

How the data were processed

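Total RNA of sorted SP and MP cells of 4 lines was hybridised to Human Genome U133 Plus 2.0 arrays, 1 per population and line. The authors deposited log2 values of MAS5 signals. GCOS 1.4 and MAS5 are named in the submitters' processing notes. The methods also mention centring, but genes have unequal means in the values used here. Each array has a trimmed mean linear signal of 500.1. Median log2 signals ran from 5.92 to 6.29 over the arrays, and the number of arrays limits the precision. Detection calls were not used here. MAS5 has no floor, so ratios of dim probe sets are large.

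Probe sets with 1 symbol in the platform table (41097 of 54675) were named, and gene identifiers changed 0 symbols. A gene was its brightest probe set. limma 3.58.1 in R 4.3.3 (lmFit, eBayes with trend) was fitted to the 12300 genes at or above a mean of 6.01, with population and cell line as terms, and p-values were adjusted over all of these by Benjamini-Hochberg with a threshold of 0.05. The line pairs the arrays: deviations of the SP and MP array of a line from the population means correlated with r from 0.887 to 0.940. The fits were tested on data simulated under the same model, which checks the code and not the assumptions of the model. Members and gene lists were chosen with earlier results of these data known. Named were all members, the 5 genes most like EFNB2 by each measure, other family members above the filter and, per signalling list, up to 3 genes by p and 3 by range between lines. Alternatives covered dim signal, normalization, probe sets, filter, fit, block and left-out arrays.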

Additional observations from a re-analysis of the deposited data

Results flagged for a closer look

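In EFNB2 every line but H1650 had the higher signal in SP, and H1650 had the lower one. The log2 ratio of H1650 minus the mean of the other 3 lines was -2.97. No test is given for it, because this contrast chose EFNB2, and it is a description of these arrays.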

How the results depend on the processing

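None of the 7 members other than EFNB2 was called between SP and MP, or in 1 line against the other 3, under any alternative in which it was tested. With the mean over probe sets 5 of them were tested, as EPHA4 and EPHB3 fell below the filter. The count of all genes called between SP and MP was 0 in each but 1: leaving out 1 line at a time gave 0 to 25, the 25 without H1650. Without the cell line as a replicate block it was 0. The mean log2 ratio of EFNA5 turned to -0.15 with the mean over its probe sets. Leaving out 1 line at a time, that of EFNA4 ran from -0.034 (without H460) to 0.32, that of EPHA2 from -3.33e-05 (without H1975) to 0.29, and that of EFNB2 from 0.33 to 1.42. That of EFNA1 ran from -0.40 to -0.075 and that of EFNA5 from 0.0013 to 0.19, both nearest 0 without A549, as was EPHB3 (0.21 to 0.52). EPHA4 (-0.43 to -0.019) and EPHB4 (0.041 to 0.098) were nearest 0 without H1650. With a floor of 32 the mean of EPHB3 was 0.24. The 2-fold ratios of members numbered 5 over 32 pairs of member and line, and 3 over 32 with the mean over probe sets. With 1 line left out they numbered 3 to 4 over 24 pairs. EFNB2, chosen for this pattern, was among the 5 in every line. The number of members that differed between lines was 6 of 8, beside 76.3% of all genes. With the mean over probe sets it was 3 of the 6 tested, beside 7528 of 10793 genes. EPHB4 lost its call without the SP array of A549 (limma adjusted p = 0.0612) and with the mean over probe sets. With arrays scaled to the same median EFNA4 and EFNB2 passed (limma adjusted p = 0.0449 and 0.0458). EFNA4 also passed without the SP array of H1650 (limma adjusted p = 0.0336). All genes called between lines numbered 9379 of 12300, and 22100 of 54613 with every probe set.

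Genes whose SP effect in H1650 differed from the other 3 lines numbered 41, and 0 with a floor of 32, quantile normalization, no filter, every probe set or no trend, 74 with a pseudocount of 16, 134 with the same median and 22 with the mean over probe sets. For H1975 the count was 5, and 2 with the same median, 1 without the filter and 0 under the other 6. For A549 it was 0, and 2 with quantile normalization and 4 with the same median. The cause was not tested. With 1 array per population and line, dim members such as EPHA1 have ratios without a known error.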
